A study of Mus musculus with 32 samples.

Results

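Forebrain microglia of rTg4510 mice were compared with those of wild type (WT) mice at 8 months of age, the oldest age of the series. The means compared came from 6 of the 32 libraries, replicates 1, 2 and 3 of each genotype at this age, taken by their labels. All 18588 genes of the deposited table were covered. The spread used in the tests was estimated from the 28 libraries of all ages that passed quality control, and not from these 6 alone. The rTg4510 mice were females that carry a human tau gene with the P301L mutation behind a tetracycline-responsive element, together with a tetracycline-controlled transactivator (tTA) driven by the CaMKIIα promoter. Mutant tau is therefore made in forebrain neurons after birth and not in the microglia themselves. The WT mice were female littermates of the 129/FVB F1 strain without either transgene, so the tTA and the tau transgene both differed between the groups. Microglia were taken with CD11b magnetic beads from pooled forebrains, and each library therefore stands for several animals. The whole series held 8 groups (2 genotypes at 2, 4, 6 and 8 months). A further library of each genotype at 8 months failed the sequencing quality control of the study and was kept out of the comparison.

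Microglia are the resident macrophages of the brain. In the healthy adult they depend on colony stimulating factor 1 and transforming growth factor β signals and express a homeostatic set of genes for surveying their surroundings, such as the purinergic receptor gene P2ry12 and Tmem119. Near dying neurons or protein deposits they lower this set and raise genes for lipid handling, lysosomal breakdown and phagocytosis, a state known as disease-associated microglia that depends in part on the receptor Trem2 and its adaptor Tyrobp.

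The values were log2 gene signals scaled to a common median over libraries. A differentially expressed gene (DEG) needed a change above 1.5 fold together with a false discovery rate (FDR) under 0.05, and SE stands for the standard error of a log2 fold change. Read totals, and with them the depth, are not known from the table. The microglial label held in all 6 libraries. Csf1r, the receptor on which microglia depend, had signals of 12.04, 12.06 and 12.19 in WT and 11.89, 11.95 and 12.04 in rTg4510, so the genotypes lay close together. The mean signal of 30 homeostatic microglial genes was 9.89 to 10.2 in WT and 9.09 to 9.22 in rTg4510, where the median gene of a library had 5.63. Markers of border macrophages had mean signals of 7.10 to 7.81 in WT and 6.89 to 7.12 in rTg4510. Those of choroid plexus and ependyma had 6.39 to 7.61 in WT and 5.87 to 7.16 in rTg4510. Those of B cells had 6.40 to 6.81 in WT and 5.47 to 6.49 in rTg4510. Markers of neurons, oligodendrocytes and astrocytes were also present below the homeostatic genes, and they were highest in replicate 1 of each genotype. The mean signal of 14 oligodendrocyte markers was 7.20 in WT replicate 1 against 5.72 and 4.81 in the others, and 6.49 in rTg4510 replicate 1 against 5.13 and 4.51. Most leading counts are therefore also given without replicate 1 of both genotypes. The 10 genes of highest signal took 44.8 to 45.6% of the summed linear signal in WT and 32.8 to 33.4% in rTg4510.

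A total of 2950 DEGs were found, 15.9% of the 18588 genes tested, with 1952 (10.5%) up-regulated and 998 (5.37%) down-regulated in rTg4510 microglia. An unadjusted p under 0.05 was found for 35.4% of genes. Without replicate 1 of both genotypes the count was 2599, of which 2338 were among the 2950 with the same direction. The median change was 2.13 fold among up-regulated and 2.00 fold among down-regulated DEGs. Changes of more than 4 fold were found in 151 up-regulated and 66 down-regulated DEGs, and changes of more than 8 fold in 42 and 5. The 3 libraries of one genotype lay wholly above or below those of the other in 1925 of the 1952 up-regulated and 939 of the 998 down-regulated DEGs, where 36.7% of all genes showed such a separation. In bulk RNA of this kind, fewer cells of a type and less RNA per cell cannot be told apart. Protein-coding genes made up 1203 of the up-regulated and 695 of the down-regulated DEGs, and annotated pseudogenes made up 593 and 159. Pseudogenes were 15.2% of the genes tested, but 30.4% of the up-regulated and 15.9% of the down-regulated DEGs. Of the pseudogenes tested 26.6% were called, against 13.7% of protein-coding genes. The up-regulated share was 78.9% among called pseudogenes and 63.4% among called protein-coding genes. Pseudogene signal may come from reads of parent genes, so the total counts are uncertain to that extent.

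**Figure D1:**
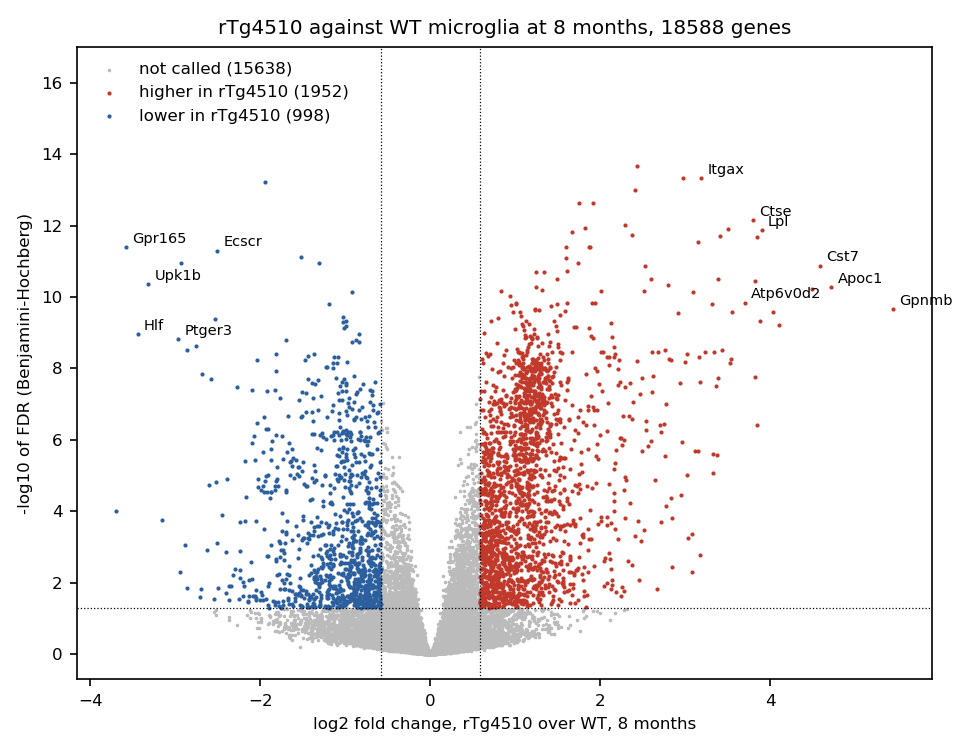
Each point is 1 of 18588 genes, with the log2 fold change of rTg4510 over WT at 8 months on the x axis and the -log10 of the FDR on the y axis, and dotted lines at an FDR of 0.05 and a change of 1.5 fold. The 1952 up-regulated DEGs reach farther from 0 than the 998 down-regulated DEGs, with Gpnmb at 5.45 and Gpr165 at -3.59.

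The largest increase among protein-coding genes with measurable signal in both genotypes was that of Gpnmb (Entrez 93695, chr6:49036518-49058182 in GRCm38), a lysosomal and cell surface glycoprotein of phagocytes. Its log2 signals were 2.95, 4.23 and 3.01 in WT and 9.09, 8.95 and 8.50 in rTg4510, a log2 fold change of 5.45 (SE 0.34, FDR 2.14e-10) or 43.6 fold. The WT values of 2.95 and 3.01 are low, where the lowest value of a library was 1.41 to 1.60, so this fold depends on them. Measurable signal means here that not all 3 libraries of a genotype lay near the lowest value. Apoc1, a small apolipoprotein that exchanges between lipoproteins, had 2.94, 3.28 and 3.48 in WT and 7.84, 8.19 and 7.83 in rTg4510 and changed by 4.72 (SE 0.27, FDR 5.32e-11). Cst7, an inhibitor of cysteine cathepsins, had 4.25, 5.04 and 4.52 in WT and 9.26, 9.36 and 8.97 in rTg4510 and changed by 4.59 (SE 0.24, FDR 1.32e-11). Every rTg4510 library lay more than 3 log2 units above every WT library for these 3 genes. Cxcl13, a chemokine that attracts B cells, followed with 5.17, 5.67 and 5.01 in WT and 9.33, 9.32 and 9.31 in rTg4510 and a log2 fold change of 4.04 (SE 0.26, FDR 2.57e-10).

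The next 8 genes in this order had log2 fold changes between 3.44 and 3.90. Lpl, the lipase that frees fatty acids from lipoproteins, had 5.67, 6.43 and 5.91 in WT and 9.72, 10.15 and 9.84 in rTg4510, a change of 3.90 (SE 0.17, FDR 1.31e-12). Chst2, a sulfotransferase that modifies N-acetylglucosamine, stood out by its level, with 9.83, 9.37 and 9.17 in WT and 13.20, 13.41 and 13.28 in rTg4510. Ctse, an aspartic protease of endosomes, had 6.71, 7.29 and 6.96 in WT and 10.76, 10.83 and 10.78 in rTg4510 and a change of 3.80 (SE 0.16, FDR 7.20e-13). Spp1, the secreted phosphoprotein osteopontin, had 4.27, 5.10 and 4.27 in WT and 8.40, 8.47 and 8.22 in rTg4510. Csf1, one of the ligands of Csf1r, had 5.18, 5.76 and 5.20 in WT and 8.88, 9.14 and 8.68 in rTg4510 and a log2 fold change of 3.53 (SE 0.28, FDR 7.02e-09). Cxcl14 (a chemokine), Fam20c (a secretory pathway kinase) and Rab7b (a late endosomal GTPase) had log2 fold changes of 3.83, 3.55 and 3.44. These 12 genes, and the 12 decreases below, were ranked only among DEGs whose genotypes did not overlap. That no WT library reached the lowest rTg4510 library in these 12 genes was therefore fixed by the choice.

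**Figure D2:**
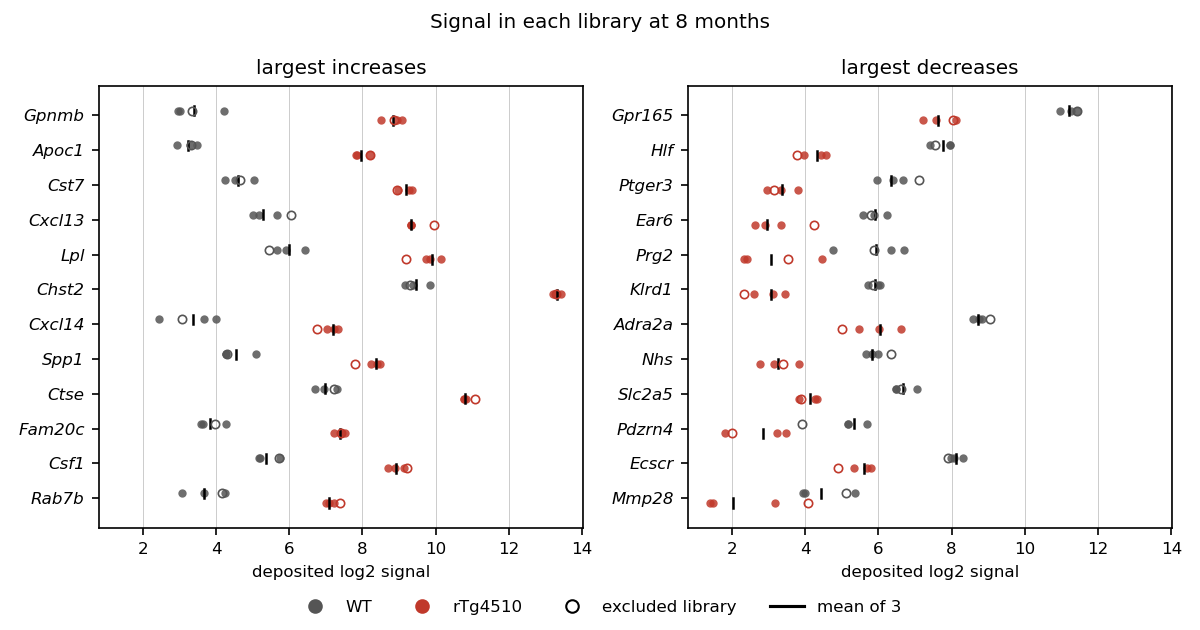
The deposited log2 signal (x axis) of the 12 largest increases and 12 largest decreases (y axis) is shown in each library, in gray for WT and red for rTg4510, with a black line at the mean of the 3 analysed libraries and open circles for the excluded library of each genotype. The means of the increases differ by 3.44 to 5.45 log2 units, while Prg2 and Mmp28 among the decreases spread widely between replicates.

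The largest decrease among protein-coding genes with measurable signal in both genotypes was that of Gpr165 (Entrez 76206, chrX:96713468-96719388 in GRCm38), an orphan receptor gene of the homeostatic set, with 11.26, 10.97 and 11.42 in WT and 7.57, 7.21 and 8.12 in rTg4510 and a log2 fold change of -3.59 (SE 0.17, FDR 4.03e-12). Hlf, a transcription factor of the PAR bZIP family that is tied to the circadian clock, had 7.95, 7.41 and 7.97 in WT and 4.45, 3.97 and 4.58 in rTg4510, a change of -3.44 (SE 0.24, FDR 1.11e-09). Ptger3, a receptor for prostaglandin E2, had 6.39, 5.96 and 6.66 in WT and 2.96, 3.82 and 3.35 in rTg4510 and changed by -2.96 (SE 0.21, FDR 1.54e-09). Their genotypes were separated by more than 2 log2 units between the nearest libraries. Klrd1, a lectin-like receptor known from natural killer cells, had 5.73, 5.99 and 6.05 in WT and 3.13, 2.61 and 3.45 in rTg4510, and Adra2a, an adrenergic receptor that lowers cyclic AMP, had 8.60, 8.82 and 8.76 in WT and 5.47, 6.03 and 6.62 in rTg4510. Slc2a5, a fructose transporter typical of microglia, changed by -2.53 (SE 0.17, FDR 4.11e-10), Ecscr by -2.51 (SE 0.12, FDR 5.04e-12) and Nhs by -2.58 (SE 0.23, FDR 2.01e-08). Pdzrn4 changed by -2.51 (SE 0.51, FDR 7.61e-04). Ear6 and Prg2 are genes of eosinophil granules. Ear6 had 5.88, 5.58 and 6.24 in WT and 3.34, 2.90 and 2.63 in rTg4510 and changed by -2.94 (SE 0.75, FDR 0.00517). Prg2 had 6.35, 4.76 and 6.71 in WT and 2.33, 2.42 and 4.46 in rTg4510 and changed by -2.87 (SE 0.84, FDR 0.0145), and Mmp28, a metalloproteinase, had 4.00, 3.94 and 5.35 in WT and 3.18, 1.49 and 1.41 in rTg4510 and changed by -2.40 (SE 0.74, FDR 0.0193). The libraries of both genotypes spread by more than 1 log2 unit for these last genes, and their calls were lost in several alternative settings. Without replicate 1 of both genotypes Prg2 was no longer called (FDR 0.149).

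In 55 DEGs the WT libraries, and in 56 the rTg4510 libraries, all lay within about 3 counts of the lowest value of their library, as read from steps in the low values, and folds for these genes are lower bounds. Genes with only some such libraries were not counted here. Gpnmb and Apoc1 in WT and Ear6, Prg2 and Mmp28 in rTg4510 are among them, so their folds also depend on low values. Lox, a lysyl oxidase that cross-links collagen, had 2.84, 2.42 and 2.72 in WT and 7.14, 7.09 and 7.21 in rTg4510, at least 16-fold higher in rTg4510. Minar1 was at least 9.67-fold higher, Stac2 at least 8.77-fold, Atp6v0d2 at least 7.97-fold and Dkk2, a Wnt antagonist, at least 7.9-fold. In the other direction Upk1b, a tetraspanin, had 5.80, 5.54 and 5.97 in WT and 2.66, 2.38 and 2.31 in rTg4510, at least 6.44-fold lower in rTg4510. Myo18b was at least 6.23-fold lower, Slc5a9 at least 4.04-fold, Olfr266 at least 3.51-fold and the non-coding 1700095B10Rik at least 3.45-fold.

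Of 44 measured genes of the disease-associated set, 43 were up-regulated and none down-regulated, with a median log2 fold change of 2.05. Over all 18588 genes the median was -0.014 and 10.5% were up-regulated. All gene lists of this report were written with earlier results of these data known. Their shares are therefore descriptions and not independent of the data. The same count of 43 was found without replicate 1 of both genotypes, and the summed signal of the list was 15.4 to 15.6 in WT and 17 to 17.2 in rTg4510 on the log2 scale. The largest changes were those of Gpnmb, Cst7 and Lpl, already described. Genes singled out after their values were seen were Apoe, the main lipid carrier of the brain, at 3.41 (SE 0.15, FDR 1.91e-12), Itgax, the integrin CD11c, at 3.19 (SE 0.11, FDR 4.63e-14), and Clec7a, a receptor for β-glucans, at 3.16 (SE 0.25, FDR 4.71e-09). Tyrobp changed by 1.17 (SE 0.08, FDR 5.74e-10). The one member not called was Trem2, with 10.19, 10.21 and 10.38 in WT and 10.76, 10.91 and 10.84 in rTg4510, a log2 fold change of 0.58 (SE 0.08, FDR 1.14e-05) that lay just under the 1.5 fold limit.

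Of 30 homeostatic genes, 14 were down-regulated and none up-regulated, where 5.37% of all genes were down-regulated, and 15 were down-regulated without replicate 1 of both genotypes. The median log2 fold change of the list was -0.56. The decreases ranged from those of Gpr165, Upk1b and Slc2a5 to modest ones such as Tmem119, with 11.50, 11.27 and 11.58 in WT and 10.62, 10.68 and 10.88 in rTg4510 and a change of -0.72 (SE 0.12, FDR 7.88e-05). P2ry12 (-0.40, SE 0.11, FDR 0.0102) and Cx3cr1 (-0.51, SE 0.11, FDR 0.00167), both singled out after their values were seen, changed by less than 1.5 fold. Under quantile normalization the count of down-regulated members was 22.

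Among 30 transcription factors of microglia 5 were up-regulated and 2 down-regulated, close to the share over all genes for the decreases, or 4 and 2 without replicate 1 of both genotypes. Maf, a macrophage bZIP factor, had 14.41, 14.45 and 14.62 in WT and 13.58, 13.46 and 13.80 in rTg4510 and changed by -0.88 (SE 0.13, FDR 1.97e-05). Sall1, a zinc finger factor that sets microglial identity, had 9.68, 9.57 and 10.04 in WT and 8.86, 8.84 and 9.14 in rTg4510 and changed by -0.81 (SE 0.11, FDR 1.09e-05). The genotypes did not overlap for either gene. Bhlhe40, a basic helix-loop-helix repressor, changed by 1.57 (SE 0.32, FDR 6.63e-04), Id2 by 1.39 (SE 0.40, FDR 0.0135) and Irf7, an inducer of interferon genes, by 1.02 (SE 0.27, FDR 0.00783). Id2 was not called without replicate 1 of both genotypes (FDR 0.073). Of 36 genes of the transforming growth factor β pathway 3 were up-regulated (8.33%) and 2 down-regulated (5.56%), close to the shares of all genes (10.5% and 5.37%). The ligand Tgfb2 changed by 1.76 (SE 0.36, FDR 7.81e-04), Itgb8, an integrin chain that activates the ligand, by 1.61 (SE 0.38, FDR 0.00302), Tgif1, a repressor of the pathway, by 1.17 (SE 0.15, FDR 2.57e-06), and the co-receptors Tgfbr3 and Eng by -0.97 (SE 0.25, FDR 0.00571) and -0.90 (SE 0.10, FDR 2.56e-07).

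**Figure D3:**
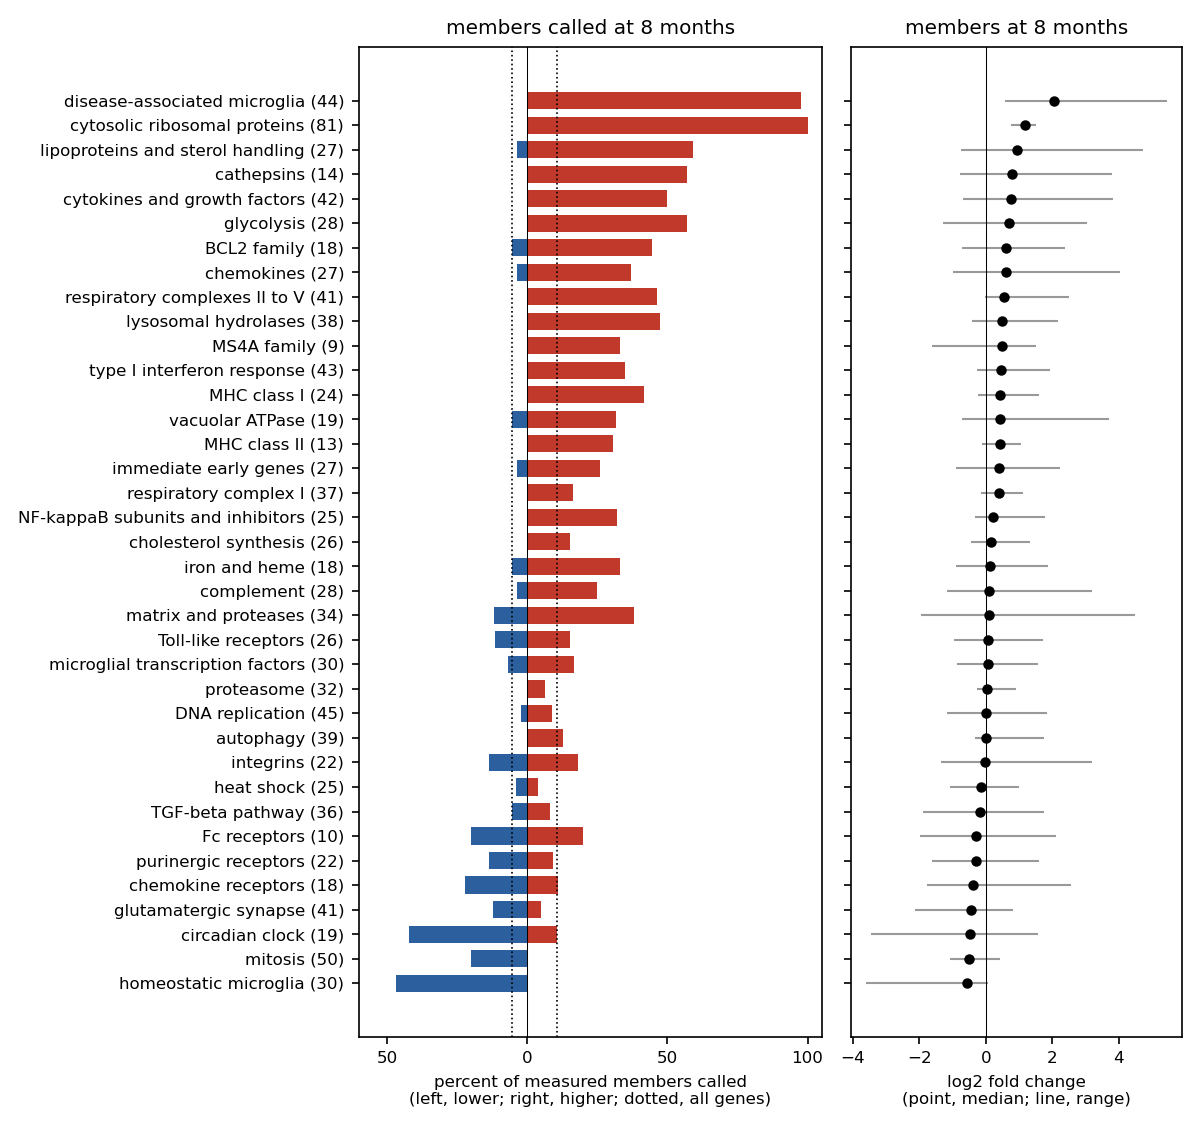
For each list of genes (y axis, number of measured members in parentheses) the left panel gives the percent of members up-regulated (red, to the right) and down-regulated (blue, to the left) at 8 months, with dotted lines at the shares of all 18588 genes (10.5% and 5.37%), and the right panel gives the median (point) and range (line) of the log2 fold changes. All 81 ribosomal protein genes and 43 of 44 disease-associated genes are up-regulated, while 14 of 30 homeostatic and 8 of 19 clock genes are down-regulated.

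Genes for lipoproteins and sterols rose in 16 of 27 cases and fell in 1, with a median log2 fold change of 0.94, and the counts were the same without replicate 1 of both genotypes. Over all genes 10.5% were up-regulated and 5.37% down-regulated. The cluster of apolipoprotein genes next to Apoe took part, with Apoc1 and Apoe as given and Apoc4 at 1.58, 1.98 and 1.58 in WT and 4.90, 5.35 and 5.50 in rTg4510, at least 4.3-fold higher. Stard3, a carrier of cholesterol at late endosomes, fell with -0.74 (SE 0.08, FDR 3.06e-07). Cholesterol synthesis stood nearer to the background, with 4 of 26 genes up-regulated and none down-regulated. Dhcr7, a reductase of sterol synthesis, had 5.14, 5.35 and 4.84 in WT and 6.19, 5.89 and 5.88 in rTg4510 and changed by 0.87 (SE 0.15, FDR 8.33e-05).

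Lysosomal genes were up-regulated in 8 of 14 cathepsins, 18 of 38 other hydrolases and 6 of 19 subunits of the vacuolar ATPase, the proton pump of the lysosome, and 1 gene of these lists was down-regulated. Without replicate 1 of both genotypes the up-regulated counts were 8, 16 and 5. The median log2 fold changes were 0.78, 0.49 and 0.43, and 10.5% of all genes were up-regulated. Ctsb and Ctsl, cysteine proteases of the lysosome, had 10.70, 10.86 and 10.76 in WT and 12.32, 12.48 and 12.36 in rTg4510 and 9.95, 10.23 and 10.14 in WT and 11.60, 11.79 and 11.75 in rTg4510, with changes of 1.61 (SE 0.10, FDR 1.44e-10) and 1.61 (SE 0.08, FDR 1.91e-11). Gla, which removes terminal galactose from glycolipids, had 5.72, 5.83 and 5.51 in WT and 7.96, 7.93 and 7.66 in rTg4510 and changed by 2.16 (SE 0.17, FDR 4.89e-09). Acp5 changed by 1.34 (SE 0.35, FDR 0.00683) and Man2b1, an α-mannosidase, by 1.12 (SE 0.07, FDR 4.82e-10). Atp6v0d2 (Entrez 242341, chr4:19876838-19922566 in GRCm38), a pump subunit known from osteoclasts, had 2.49, 2.68 and 2.14 in WT and 6.12, 6.22 and 6.09 in rTg4510 and, as given above, was at least 7.97-fold higher. Atp6v0c and Atp6v1a changed by 1.28 (SE 0.11, FDR 2.62e-08) and 1.05 (SE 0.08, FDR 6.73e-09), and Atp6v0a2 by -0.72 (SE 0.08, FDR 2.09e-07). Of the MiT/TFE factors that bind promoters of lysosomal genes, Mitf changed by 0.79 (SE 0.08, FDR 9.25e-08), whereas Tfeb (0.05, SE 0.15, FDR 0.853), Tfe3 (0.02, SE 0.10, FDR 0.895) and Tfec (0.05, SE 0.28, FDR 0.925) did not pass the test.

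Promoters of these lysosomal genes were searched for the letters that MiT/TFE factors bind, since many of the genes moved together. Promoter sequences (RefSeq, GRCm38.p6, 250 bases before to 50 after each start site) were at hand for 54 members of the 3 lists and for 11107 protein-coding genes of the table, with 1.24 and 1.27 start sites a gene. Both strands were read. TCACGTGA was present in 7 (13%) of the lysosomal genes and 1.99% of all genes, and TCACATGA in 7 (13%) and 0.927%. The shorter CACGTG, which TCACGTGA contains, was present in 29.6% and 11.2%. Either of the 8-letter motifs was found in 7 of the 23 lysosomal genes called up-regulated and in 5 of the 31 that were not. Of these 5, Atp6v0e, Tpp1 and Ppt1 had log2 fold changes of 0.56, 0.49 and 0.48, under the 1.5 fold limit. Atp6v0d1 and Sumf1 had 0.31 and 0.09. The split by call therefore does not separate members that moved from members that did not. The stretches upstream of the start that held an 8-letter motif in up-regulated members are shown 5′ to 3′ on the strand of the gene, each 60 bases long, with the motif in capitals.
Gla (chrX:134601184-134601243, minus strand): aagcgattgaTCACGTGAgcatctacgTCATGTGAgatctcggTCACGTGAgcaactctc
Ctsd (chr7:142387893-142387952, minus strand): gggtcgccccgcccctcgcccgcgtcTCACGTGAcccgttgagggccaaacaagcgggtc
Ctsa (chr2:164833713-164833772, plus strand): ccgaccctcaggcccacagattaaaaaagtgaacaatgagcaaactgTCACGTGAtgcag
Atp6v1a (chr16:44139358-44139417, minus strand): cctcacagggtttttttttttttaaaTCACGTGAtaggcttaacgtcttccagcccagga
Acp5 (chr9:22130656-22130715, minus strand): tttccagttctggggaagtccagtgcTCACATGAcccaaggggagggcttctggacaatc
Atp6v0c (chr17:24169451-24169510, minus strand): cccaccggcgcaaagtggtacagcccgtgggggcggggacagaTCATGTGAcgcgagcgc
Gla, the gene with the largest change among the hydrolases other than cathepsins, held 3 such motifs within this stretch, and TCATGTGA is TCACATGA read on the other strand. Ctsd and Ctsa changed by 1.03 (SE 0.08, FDR 3.41e-09) and 0.83 (SE 0.05, FDR 6.65e-11). In Ctss, the other up-regulated member with a match, it lay after the start. A match of letters is a description and shows no binding.

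Secreted signals were up-regulated in 21 of 42 cytokines and growth factors, with none down-regulated, and in 10 of 27 chemokines, with Ccl24 down-regulated. The shares of all genes were 10.5% up-regulated and 5.37% down-regulated. Without replicate 1 of both genotypes 18 cytokines and 8 chemokines were up-regulated. Besides Spp1 and Csf1, Il12b, a subunit of interleukin 12, had 1.99, 1.97 and 1.86 in WT and 4.90, 5.68 and 4.68 in rTg4510, at least 3.84-fold higher. Ccl3, an inflammatory chemokine, was already abundant in WT, with 11.86, 12.30 and 11.37 in WT and 13.95, 14.45 and 13.97 in rTg4510 and a change of 2.28 (SE 0.34, FDR 2.51e-05). Tnf (2.29, SE 0.40, FDR 1.56e-04) and Il1b (2.26, SE 0.27, FDR 1.41e-06), singled out after their values were seen, also rose, whereas Il6 (0.02, SE 0.28, FDR 0.963) and Il10 (-0.05, SE 0.56, FDR 0.962) did not pass the test. Among 18 chemokine receptors 2 (11.1%) were up-regulated and 4 (22.2%) down-regulated. Cxcr4, the receptor for Cxcl12, had 8.24, 9.01 and 7.57 in WT and 10.91, 11.01 and 10.59 in rTg4510 and changed by 2.56 (SE 0.31, FDR 1.48e-06), and Ccrl2, a receptor-like protein that binds chemerin, changed by 2.01 (SE 0.36, FDR 1.83e-04). Ccr3, the eotaxin receptor, had 7.41, 6.96 and 7.78 in WT and 5.82, 4.90 and 6.13 in rTg4510 and changed by -1.77 (SE 0.36, FDR 7.60e-04), while Cxcr6 changed by -0.79 (SE 0.20, FDR 0.00587).

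Of 25 genes of the NF-κB pathway 8 were up-regulated and none down-regulated, with the same count without replicate 1 of both genotypes. Bcl3 (1.77, SE 0.22, FDR 2.26e-06), Tnfaip3 (1.61, SE 0.29, FDR 2.34e-04) and Nfkbia (1.44, SE 0.32, FDR 0.00173), the 3 with the largest changes, are targets as well as inhibitors or modulators of the pathway, and Rela was not called (0.19, SE 0.11, FDR 0.241). In the BCL2 family 8 of 18 genes were up-regulated, where 10.5% of all genes were, and 7 without replicate 1 of both genotypes. They were led by Bcl2a1b, with 10.10, 10.38 and 10.16 in WT and 12.73, 12.55 and 12.46 in rTg4510 and a change of 2.37 (SE 0.11, FDR 1.90e-12), followed by Bcl2a1a at 1.94 (SE 0.12, FDR 1.51e-10) and Bcl2a1d at 1.46 (SE 0.10, FDR 4.69e-10). These survival genes are near-identical copies, and reads could be split between them. Bid, which promotes cell death, changed by -0.70 (SE 0.16, FDR 0.00259).

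Antigen presentation genes of both classes were up-regulated in part, where 10.5% of all genes were up-regulated. Of 24 class I genes 10 were up-regulated (9 without replicate 1 of both genotypes), among them H2-D1 with 5.98, 6.54 and 5.85 in WT and 7.62, 7.95 and 7.62 in rTg4510 and a change of 1.60 (SE 0.14, FDR 2.36e-08), H2-K1 at 1.39 (SE 0.12, FDR 1.67e-08) and H2-Q6 at 1.49 (SE 0.41, FDR 0.00926). Class II had 4 of 13 up-regulated (3 without replicate 1 of both genotypes), Ifi30 at 1.07 (SE 0.10, FDR 8.50e-08), H2-DMa at 0.80 (SE 0.13, FDR 4.29e-05), Ctss at 0.73 (SE 0.06, FDR 1.06e-08) and Cd74 at 0.71 (SE 0.22, FDR 0.0242), while H2-Aa and H2-Ab1, the chains of the presenting molecule, were not called (0.23, SE 0.20, FDR 0.427 and 0.52, SE 0.19, FDR 0.0541). Reads of class I genes can be shared between copies. Of 43 interferon response genes 15 were up-regulated and none down-regulated, with a median log2 fold change of 0.45, and 10 were up-regulated without replicate 1 of both genotypes. Cxcl10 changed by 1.92 (SE 0.46, FDR 0.00331), Irf7 as given above and Ifi44 by 1.005 (SE 0.19, FDR 3.57e-04).

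Complement and receptor lists held genes called in both directions, in several lists at shares near those of all genes (10.5% up-regulated and 5.37% down-regulated). Of 28 complement genes 7 were up-regulated and 1 down-regulated, a count that became 4 and 3 under quantile normalization. Among the 7 were C3, the central component, with 3.80, 4.07 and 3.78 in WT and 5.98, 6.00 and 5.68 in rTg4510 and a change of 2.00 (SE 0.15, FDR 3.48e-09), and its receptor C3ar1 at 1.52 (SE 0.10, FDR 3.11e-10), besides Itgax. The one decrease was that of C5ar2, which changed by -0.66 (SE 0.19, FDR 0.0135) and was not called without replicate 1 of both genotypes (FDR 0.254). Among 10 Fc receptors Fcgr4 (2.11, SE 0.17, FDR 8.26e-09) and Fcer1g (0.67, SE 0.09, FDR 6.79e-06) were up-regulated and Fcrl1 (at least 2.7-fold lower) and Fcrls (-0.79, SE 0.11, FDR 8.58e-06) down-regulated. Among 26 genes of Toll-like receptor signalling Tlr2 (1.71, SE 0.12, FDR 7.15e-10), the co-receptor Cd14 (1.24, SE 0.16, FDR 2.67e-06) and Tlr1 (0.90, SE 0.12, FDR 3.23e-06) led 4 that rose. Tlr5 (-0.97, SE 0.17, FDR 1.72e-04), Tlr3 (-0.74, SE 0.11, FDR 2.10e-05) and Tirap (-0.69, SE 0.16, FDR 0.00187) were the 3 that fell. Purinergic receptors split likewise: of 22, P2ry2 and P2rx4 rose, with 1.61 and 1.09, while P2rx1, P2ry13 and Gpr34 fell, with -1.63, -0.91 and -0.87. Of 22 integrins 4 were up-regulated, led by Itgax and Itgad (2.43, SE 0.19, FDR 6.15e-09), and 3 were down-regulated, Itgae (at least 1.82-fold lower), Itga9 (-1.23, SE 0.10, FDR 9.13e-09) and Itgb7 (-0.93, SE 0.22, FDR 0.00262). In the Ms4a family, membrane proteins of myeloid cells, 3 of 9 genes rose, Ms4a4d (at least 1.64-fold higher), Ms4a4c (0.95, SE 0.19, FDR 5.01e-04) and Ms4a6c (0.78, SE 0.18, FDR 0.00184).

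All 81 genes of cytosolic ribosomal proteins were up-regulated, in a narrow range of log2 fold changes from 0.757 to 1.52 with a median of 1.17, and all 81 were up-regulated without replicate 1 of both genotypes and under quantile normalization. Rpl10a had 5.89, 6.00 and 5.72 in WT and 7.30, 7.48 and 7.40 in rTg4510, Rpl32 had 8.98, 9.21 and 9.08 in WT and 10.51, 10.65 and 10.41 in rTg4510 and Rps20 had 7.82, 8.15 and 8.11 in WT and 9.45, 9.54 and 9.32 in rTg4510, with changes of 1.52 (SE 0.14, FDR 2.36e-08), 1.44 (SE 0.12, FDR 1.72e-08) and 1.41 (SE 0.12, FDR 2.21e-08). Of 195 genes named as ribosomal protein pseudogenes 154 were also up-regulated, 7.89% of all up-regulated DEGs, and their signal may come from reads of the parent genes, so these entries are uncertain.

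Glycolysis genes were up-regulated in 16 of 28 cases and down-regulated in none, where 10.5% of all genes were up-regulated, with a median log2 fold change of 0.69, and 14 were up-regulated without replicate 1 of both genotypes. Hif1a, the hypoxia-inducible factor of this list, had 7.97, 8.01 and 8.09 in WT and 9.55, 9.54 and 9.47 in rTg4510 and changed by 1.49 (SE 0.08, FDR 3.24e-11). Egln3, a prolyl hydroxylase that acts on it, was at least 5.82-fold higher with 2.82, 2.92 and 2.25 in WT and 5.34, 5.82 and 5.90 in rTg4510, and Eno2 changed by 1.90 (SE 0.28, FDR 2.25e-05). Respiratory complexes II to V had 19 of 41 genes up-regulated and complex I had 6 of 37, nearer to the share of all genes, with medians of 0.544 and 0.385 and no down-regulated gene. Without replicate 1 of both genotypes 16 and 6 were up-regulated. Cox6a2, an isoform of cytochrome oxidase known from muscle and heart, had 5.25, 4.31 and 5.57 in WT and 7.53, 7.56 and 7.53 in rTg4510 and changed by 2.50 (SE 0.31, FDR 2.03e-06). Cox4i1, Cox8a and Ndufa1 changed by 1.08 (SE 0.09, FDR 1.75e-08), 0.999 (SE 0.12, FDR 1.36e-06) and 1.12 (SE 0.14, FDR 3.44e-06). Of 18 genes of iron and heme handling 6 were up-regulated (4 without replicate 1 of both genotypes), with the ferritin chains Fth1 at 1.87 (SE 0.13, FDR 7.60e-10) and Ftl1 at 1.11 (SE 0.17, FDR 3.32e-05), while Slc40a1, the iron exporter, changed by -0.90 (SE 0.10, FDR 2.85e-07). The proteasome (2 of 32 up-regulated) and autophagy (5 of 39) were near the background of 10.5%, although the cargo receptors Optn (1.76, SE 0.18, FDR 1.47e-07) and Sqstm1 (1.205, SE 0.13, FDR 2.41e-07) and the Atg8 family gene Gabarap (1.11, SE 0.13, FDR 6.67e-07) rose.

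Of 50 mitosis genes 10 were down-regulated and none up-regulated, where 5.37% of all genes were down-regulated, with a median log2 fold change of -0.51, and 6 were down-regulated without replicate 1 of both genotypes. Bub1b, a spindle checkpoint kinase, had 3.69, 3.96 and 3.82 in WT and 2.90, 2.86 and 2.46 in rTg4510, near the lowest value in rTg4510, and at least 1.67-fold lower. Ncaph, a condensin subunit, changed by -1.08 (SE 0.11, FDR 1.81e-07), and Top2a, the topoisomerase of dividing cells, had 4.87, 4.72 and 4.69 in WT and 3.83, 3.94 and 3.97 in rTg4510 and changed by -0.85 (SE 0.20, FDR 0.00303). DNA replication genes stood at the background, with 4 of 45 up-regulated and 1 down-regulated, or 3 and none without replicate 1 of both genotypes. Dna2, a nuclease and helicase, had 3.34, 3.79 and 3.88 in WT and 5.37, 5.62 and 5.50 in rTg4510 and changed by 1.83 (SE 0.16, FDR 1.41e-08).

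Circadian genes fell in 8 of 19 cases and rose in 2, and 6 fell and 2 rose without replicate 1 of both genotypes. Among all genes 5.37% fell and 10.5% rose by the same rule. Besides Hlf, Per3, a period gene of the clock, had 5.36, 4.88 and 5.33 in WT and 3.62, 3.42 and 4.03 in rTg4510 and changed by -1.50 (SE 0.20, FDR 4.22e-06). The PAR bZIP genes Dbp and Tef changed by -0.88 (SE 0.18, FDR 6.80e-04) and -0.71 (SE 0.25, FDR 0.043), while Nfil3, a repressor that binds the same D-box element, rose by 1.29, and Clock (-0.10, SE 0.08, FDR 0.375) and Arntl (-0.16, SE 0.12, FDR 0.36), the activators of the clock, did not pass the test. The hour of tissue collection was not given in the sources used here. The D-box letters TTATGTAA, read on both strands, were present in promoters of 12 (2.15%) of the 558 down-regulated genes with a promoter, 5 (0.524%) of the 954 up-regulated genes and 0.783% of all 11107. Per3 was 1 of the 12. The others included Mrgpra2a with Mrgpra2b and the histone genes H2ac18, H2ac19 and H3c11, members of shared families, so the 12 are few and not independent. Immediate early genes rose in 7 of 27 cases and fell in 1, with Nr4a1, a nuclear receptor, at 2.24 (SE 0.26, FDR 8.81e-07) and Maff at 1.71 (SE 0.42, FDR 0.00428). Fosl1 spread from 1.58 to 3.84 in WT and its call was lost without replicate 1 of both genotypes (FDR 0.116). Of 25 heat shock genes Hspe1 (1.004, SE 0.09, FDR 2.67e-08) rose and Hsph1 (-0.89, SE 0.21, FDR 0.00283) fell.

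Of 41 genes of the glutamatergic synapse 5 (12.2%) were down-regulated and 2 (4.88%) up-regulated, or 6 and 1 without replicate 1 of both genotypes. The shares of all genes were 5.37% down-regulated and 10.5% up-regulated. Adcy8, an adenylyl cyclase, had 5.01, 5.22 and 5.58 in WT and 3.60, 3.33 and 3.87 in rTg4510 and changed by -1.67 (SE 0.18, FDR 2.12e-07). Dlgap1, a scaffold of the synapse, had 6.64, 6.30 and 6.60 in WT and 5.32, 5.23 and 5.34 in rTg4510 and changed by -1.22 (SE 0.10, FDR 9.26e-09). Both genes separated the genotypes in every library. The calcium channel genes Cacna1a and Cacna1d changed by 0.82 (SE 0.08, FDR 1.59e-07) and 0.64 (SE 0.08, FDR 2.55e-06), the latter not called without replicate 1 of both genotypes. Slc1a2, the glutamate transporter of astrocytes, had 7.57, 5.12 and 5.15 in WT and 4.51, 3.74 and 3.19 in rTg4510, with WT replicate 1 more than 2 log2 units above the other WT libraries. Its log2 fold change was -2.14 (SE 0.58, FDR 0.00855), and it was -1.67 without replicate 1 of both genotypes (FDR 0.0372). The summed signal of 11 astrocyte markers was 10.6 to 12 in WT and 9.89 to 10.5 in rTg4510. Among 34 matrix and protease genes 13 rose and 4 fell, or 12 and 3 without replicate 1 of both genotypes. Plaur, the urokinase receptor, had 5.40, 5.12 and 4.59 in WT and 7.74, 7.97 and 7.73 in rTg4510 and changed by 2.77 (SE 0.27, FDR 9.91e-08), while Tgm2, a transglutaminase, fell with -0.79 (SE 0.09, FDR 1.00e-06).

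All marker lists of other cells had medians below 0. Besides the neutrophil list given below, 3 of 11 astrocyte markers (27.3%) and 2 of 11 border macrophage markers (18.2%) were down-regulated. Without replicate 1 of both genotypes these counts were 2 and 1. Every other marker list had at most 1 member called in each direction. The median log2 fold change was -0.776 for oligodendrocyte, -0.767 for astrocyte and -0.681 for endothelial markers. The monocyte list went 2 ways. Its median was -0.338, but its summed signal was 8.8 to 9.4 in WT and 10.2 to 10.4 in rTg4510, and 1 of its 9 members was called, as up-regulated. None of 7 neuron markers and none of 6 choroid plexus markers was called, although the neuron list had a median log2 fold change of -1.11 and its summed signal was 7.34 to 8.50 in WT and 6.82 to 7.20 in rTg4510. Of 13 neutrophil markers 8 were down-regulated, with a median of -1.39 and a summed signal of 10.7 to 11 in WT and 9.25 to 9.98 in rTg4510 on the log2 scale. By the same rule 5.37% of all genes were down-regulated. Camp, a granule peptide, had 6.72, 6.12 and 6.12 in WT and 3.40, 4.52 and 4.69 in rTg4510, and S100a9, a calcium-binding protein of neutrophils, had 8.15, 8.20 and 7.98 in WT and 6.00, 6.49 and 6.82 in rTg4510, with changes of -2.12 (SE 0.49, FDR 0.00256) and -1.67 (SE 0.40, FDR 0.00349). Camp and S100a9 were not called without replicate 1 of both genotypes (FDR 0.0777 and 0.0538), when 2 of the 13 passed, while between 4 and 9 were called with any single library left out. Mmp8 and Mmp9, counted among the matrix genes that fell, are also in the neutrophil list. Among astrocyte markers Gfap rose, with 3.70, 3.74 and 3.90 in WT and 5.54, 5.39 and 5.80 in rTg4510 and a change of 1.80 (SE 0.35, FDR 4.44e-04), while Slc1a3 (-0.71, SE 0.09, FDR 2.56e-06), Aqp4 (-1.38, SE 0.48, FDR 0.0369) and Slc1a2 fell. Aqp4 was not called without replicate 1 of both genotypes (FDR 0.0962). Of 14 oligodendrocyte markers Cspg4, a proteoglycan also known from precursor cells and pericytes, rose with 2.67, 3.13 and 2.68 in WT and 5.49, 5.58 and 5.29 in rTg4510. Among endothelial markers Pecam1 had 5.43, 5.56 and 5.57 in WT and 3.57, 3.45 and 3.42 in rTg4510 and changed by -2.04 (SE 0.16, FDR 5.90e-09), whereas Flt1 rose by 1.17. The part of other cell types in the results was not tested.

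**Figure D4:**
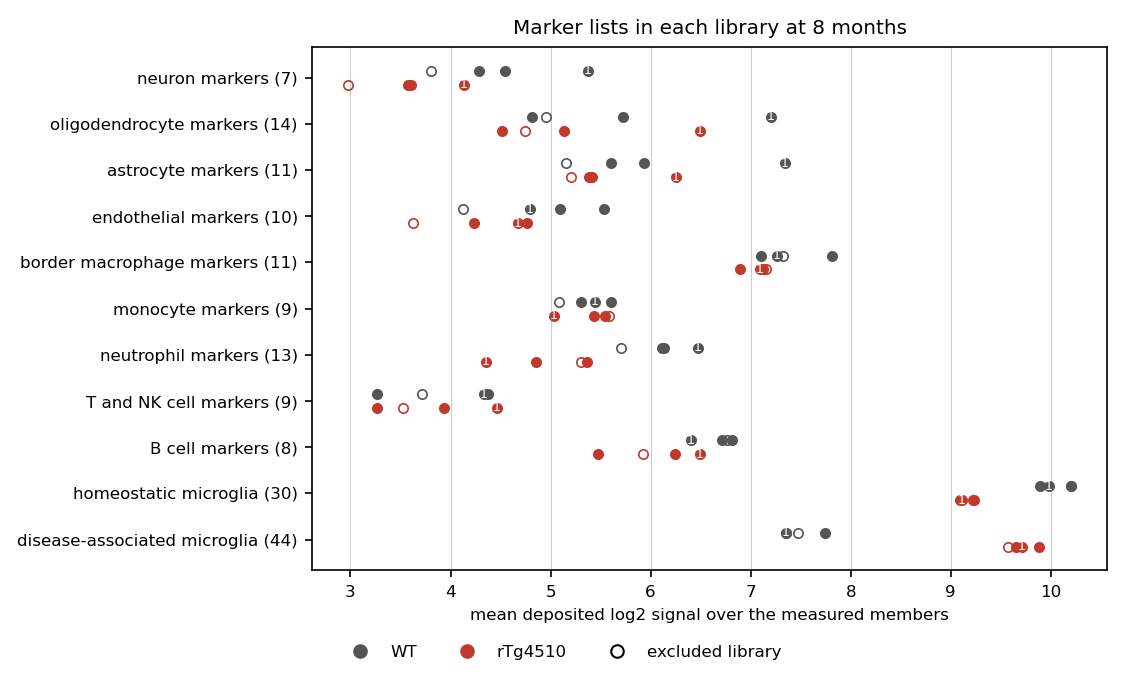
The mean deposited log2 signal over the members of each marker list (x axis) is shown in each library at 8 months, in gray for WT and red for rTg4510, with a 1 inside the point of replicate 1 and open circles for the excluded libraries. Replicate 1 of both genotypes has the highest oligodendrocyte (7.20 and 6.49) and astrocyte signal, and neutrophil markers lie at 6.11 to 6.47 in WT and 4.35 to 5.36 in rTg4510.

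Neighbouring genes on the chromosomes moved together in 34 runs of at least 4 adjacent DEGs of 1 direction. How many such runs would arise without any grouping was not tested. The longest run of adjacent DEGs of 1 direction held 36 predicted genes and pseudogenes on chromosome 14 (chr14:4649612-6425622), all down-regulated, and further runs of 4 to 12 genes lay on both sides of it. In the whole block (chr14:3029918-7658936) 92 of 99 measured genes were down-regulated, 9.22% of all down-regulated DEGs, with a median log2 fold change of -1.10. The limits of the block were set by the outermost of the longer runs, so the share inside it was partly fixed by the calls. The mean signal of the block was 6.82, 6.62 and 6.96 in WT and 5.59, 5.35 and 5.73 in rTg4510. These predicted genes form families of near-identical copies, so the entries share reads and are not independent. Outside chromosome 14 the longest run was a cluster of 9 histone genes on chromosome 13 (chr13:21782915-21837530). It went from H3c11 (-1.18, SE 0.43, FDR 0.0479) to H4bc24 (-0.84, SE 0.23, FDR 0.0102). Of these 9 genes 8 were not called without replicate 1 of both genotypes. Of 57 clustered core histone genes, a set formed after the values were seen, 36 were down-regulated and none up-regulated, with a median of -0.91 and mean signals of 7.93, 8.14 and 7.51 in WT against 6.88, 7.43 and 6.80 in rTg4510. By the same rule 5.37% of all genes were down-regulated.

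Genes tied to the transgenes were read separately. Mouse Mapt, whose human counterpart is the transgene, had 6.77, 5.33 and 5.07 in WT and 5.41, 5.22 and 3.51 in rTg4510 and Prnp, whose untranslated sequence is part of the tau construct, had 9.76, 8.40 and 7.18 in WT and 9.01, 8.62 and 8.56 in rTg4510, with overlapping genotypes and no call (-1.01, SE 0.48, FDR 0.141 and 0.28, SE 0.42, FDR 0.674). The table has no entry for the human gene, so these values check neither transgene. In this line the tTA transgene is known to lie on chromosome 12 within a deletion that spans several genes. Of these, 3 were in the table and all were down-regulated: Esyt2 (chr12:116279283-116390935) with 6.15, 6.07 and 6.12 in WT and 5.16, 5.19 and 5.28 in rTg4510, Wdr60 (chr12:116206261-116263046) with 5.17, 5.27 and 5.49 in WT and 4.83, 4.33 and 4.596 in rTg4510, and Ncapg2 (chr12:116405351-116463532) with 3.92, 4.04 and 4.28 in WT and 3.64, 3.36 and 3.21 in rTg4510. The log2 fold changes were -0.90 (SE 0.09, FDR 8.94e-08), -0.72 (SE 0.12, FDR 6.72e-05) and -0.68 (SE 0.17, FDR 0.00476), lower in every rTg4510 library than in any WT library. D430020J02Rik, a neighbour of these genes, was measured with -0.46 (SE 0.35, FDR 0.378) and overlapping libraries. In younger mice (2, 4 and 6 months) the log2 fold changes of Esyt2 were -0.93, -0.88 and -0.62, and those of Wdr60 were -0.73, -0.94 and -1.01, so that both genes were already lower at the youngest age.

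The effect at 8 months was set against that at the younger ages by a test of the difference itself. Against 6 months 0 genes passed (limma with ordinary variance and Benjamini-Hochberg adjustment), 841 genes or 4.52% had an unadjusted p under 0.05, and moderated variance also gave 0. A pseudocount of 4 on the linear scale gave 1 gene, Atp6v0d2. The gene with the lowest p was Atp6v0d2, whose log2 fold change was 0.05, 1.57, 2.05 and 3.70 at 2, 4, 6 and 8 months, with a difference from 6 months of 1.65 (SE 0.30, FDR 0.347). These fitted values depend on WT signals near the lowest value. Of the 2950 DEGs, 467 were called at no younger age, and of these 86 or 18.4% had an unadjusted p under 0.05 for the difference from 6 months. The 467 were picked by a call at 8 months and none at 6 months. Their 18.4% is therefore not comparable with the 4.52% of all genes, and no conclusion is drawn from it.

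Against 4 months 26 genes (0.14% of those tested) differed, 7 (0.0377%) toward higher and 19 (0.102%) toward lower expression in rTg4510 at 8 months. An unadjusted p under 0.05 was found for 8.49%. Genes of the cell cycle were among the 26. Top2a had a log2 fold change of 1.01 at 4 months and -0.85 at 8 months, Mki67, a marker of dividing cells, 0.83 and -0.62, and Mcm6, a subunit of the replication helicase, 1.28 and -0.39. Racgap1 and Ankle1 were called higher in rTg4510 at 4 months and lower at 8 months, as were Top2a and Mki67, whereas Mcm6 was not called at 8 months. Without replicate 1 of both genotypes 10 genes differed, and 14 of the 26 were called with the replicate number as a block. Gpx3, a secreted glutathione peroxidase, went the other way, from -0.20 to 1.65 with 5.08, 5.83 and 5.02 in WT and 7.04, 7.07 and 6.76 in rTg4510 at 8 months, as did Irf1, an interferon regulatory factor, from -0.14 to 0.82. Tnfrsf11b, the decoy receptor osteoprotegerin, had its largest change at 4 months, with 5.02, and stood at 3.504 at 8 months, fitted values against WT signals near the lowest value. Gpr165 fell further with age, from -1.09 at 2 months to -2.30, -3.21 and -3.59.

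Against 2 months 1245 genes (6.70%) differed (978 without replicate 1 of both genotypes), 902 (4.85%) toward higher and 343 (1.85%) toward lower expression in rTg4510. Gpnmb went from 0.82 to 3.504, 4.23 and 5.45, and Apoc1 from 0.83 to 4.72. Hlf went from -0.66 to -3.44 and Ptger3 from -0.30 to -2.96. Among the 2950 DEGs 344 were also called at 2 months, where 1.98% of all genes were called, 1888 at 4 months (13.8%) and 2375 at 6 months (19.8%). An unadjusted p under 0.05 for the difference from 2 months was found for 21.1% of genes.

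**Figure D5:**
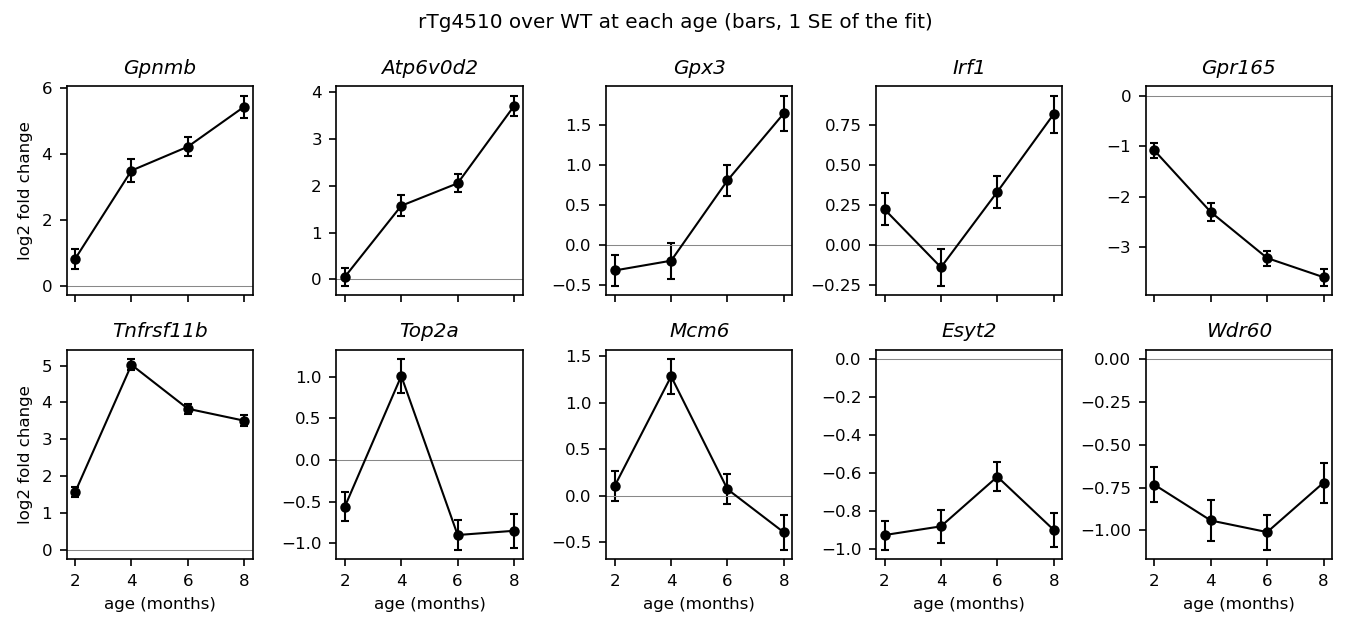
The log2 fold change of rTg4510 over WT (y axis, scaled per gene) is plotted against age in months (x axis) for 10 genes, with bars of 1 SE of the fit. Atp6v0d2 and Gpx3 are highest at 8 months, Tnfrsf11b, Top2a and Mcm6 are highest at 4 months, and Esyt2 and Wdr60 lie below 0 at every age.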

How the data were processed

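Sequencing reads were mapped to GRCm38 according to the submitters' processing notes, and the authors summed exon reads, left out exons of low count in most samples and combined exons into gene signals by a robust linear model. The deposited values are these gene signals on the log2 scale, scaled by the authors to a common median. The deposited table holds no read totals, so no counting interval could be given. Part of the low values fell at log2 of whole counts raised by 1.5: of 4567 values within 3 counts of the lowest, 48.2% fell on whole counts and 25.7% midway between them, within 0.003. The others fell on neither, so this reading, on which the lower bounds rest, is an inference.

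A 2 genotype by 4 age linear model was fitted to the 28 libraries that passed quality control (limma 3.58.1 in R 4.3.3, ordinary variance, 20 residual degrees of freedom), with contrasts at 8 months and contrasts between ages, two-sided, and Benjamini-Hochberg adjustment over 18588 genes. SE is the standard error of the contrast. With 3 libraries a genotype an exact permutation test of a single gene cannot go below p = 0.1. Each library is a pool of several forebrains, so p-values measure the spread between these pools. Same-numbered WT and rTg4510 libraries deviated together at 8 months (r = 0.291, 0.15 and 0.291, other pairs -0.259 to -0.0281), which was read from the values and the replicate numbers in the labels. In simulated data on 18588 genes the comparison at 8 months recovered 65% of genes changed by 1 log2 unit and 86% of those changed by 2, with 4 false calls. The test of the difference from 6 months recovered 50% and 76% of them. The simulation changed a small set of genes, at 8 months only, with independent normal noise. The data hold many more changed genes and shared deviations of same-numbered libraries, so these rates may not hold for them.

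Gene symbols were taken from RefSeq through Entrez numbers for 17828 genes (95.9%), and 760 were unmatched. The 51 gene lists, the libraries compared and the genes named were chosen with earlier results of these data known. Genes were named by rule: the 12 largest increases and decreases among protein-coding DEGs with separated genotypes and signal in both, up to 3 genes each way per list, genes that passed the tests between ages (the 5 with the largest difference each way against 2 months, the 5 of smallest p against 6 months), the 5 largest lower bounds each way, the 5 DEGs of highest signal, 3 long non-coding RNAs each way, and the 3 longest runs of neighbours. Genes outside this rule (Apoe, Clec7a, Tyrobp, Trem2, Tmem119, P2ry12, Cx3cr1, Csf1r, Tnf, Il1b, Il6, Il10, Rela, Cd74, H2-Aa, H2-Ab1, Ctsa, Ctsd, Mitf, Tfeb, Tfe3, Tfec, Dbp, Tef, Clock, Arntl, Abca1 and the eosinophil genes) were chosen after their values were seen. Some named genes are not reported here. The aligner is not given in the sources used here. Alternatives were moderated variance, the replicate number as a block, all 32 libraries, quantile normalization, a filter on genes under the 25th percentile of signal, a pseudocount of 4 on the linear scale, the 6 libraries alone, the excluded libraries added, and each library left out. Leaving out replicate 1 of both genotypes was added after seeing the data.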

Additional observations from a re-analysis of the deposited data

Results flagged for a closer look

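The effect of genotype at 8 months differed from that at 4 months in 26 genes and from that at 2 months in 1245 genes, by the test of the difference itself. With the replicate number as a block 14 of the 26 kept the call. Against 4 months the difference in log2 fold change was negative for Ankle1 (-3.30), Top2a (-1.86), Bub1b (-1.71), Mcm6 (-1.67), Racgap1 (-1.58), Tnfrsf11b (-1.52), Mki67 (-1.46), Serpinf1 (-1.44), Gpr165 (-1.29), Gm3716 (-1.21), Klrb1a (-1.15), Klhdc8b (-1.07), Myo18b (-1.07), Ccl6 (-0.99), Ecscr (-0.92), Adgrl1 (-0.78), Cd34 (-0.73), Gm5795 (-0.62) and Vcl (-0.61). It was positive for 4933416M07Rik (2.67), Atp6v0d2 (2.13), Gpx3 (1.84), Apoa2 (1.27), Irf1 (0.96), Lfng (0.91) and Notch1 (0.64). The cell cycle genes Top2a, Bub1b, Racgap1, Mki67 and Mcm6 were higher in rTg4510 at 4 months, where Bub1b was not called, and all but Mcm6 were called lower at 8 months. Gm5795 lies among the near-identical predicted genes of chromosome 14 and is uncertain.

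Against 2 months the largest positive differences were those of Gpnmb (4.63), Apoc1 (3.89), Lox (3.76), Atp6v0d2 (3.65) and Dkk2 (3.62), and the largest negative ones those of Gm11524 (-3.04), Olfr266 (-2.83), Gm14139 (-2.82), Hlf (-2.78) and Ptger3 (-2.66). Lox, Atp6v0d2 and Dkk2 in WT and Olfr266 and Gm14139 in rTg4510 lay near the lowest value, so their differences depend on that floor.

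The excluded libraries of 8 months, 1 of each genotype, entered only the alternative settings. Their difference had the same sign as the log2 fold change in 95.3% of the 2950 DEGs. It was positive in 96.4% of the up-regulated DEGs and in 49.0% of all genes, and negative in 93.1% of the down-regulated DEGs. The median differences were 0.90 and -0.87 for up-regulated and down-regulated DEGs, against 1.09 and -0.997 in the 3 libraries of each genotype. Gpnmb had 3.35 and 8.85 and Gpr165 had 11.43 and 8.03 in the excluded WT and rTg4510 libraries. With 1 library of each genotype no test was made. Groups of 3 libraries were too small for a search for outlying samples.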

How the results depend on the processing

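The count of 2950 DEGs ranged from 2416 with the filter on low signal to 3195 under quantile normalization, and from 2612 to 2927 when each library was left out, always within 1.5 times. The up-regulated share was 66.2%, between 60.5 and 69.4% under the alternatives and between 64.9 and 68.9% with a library left out. The count against 6 months was 0 in every setting except the pseudocount of 4, which gave 1 (Atp6v0d2). Against 4 months the count was 49 with all 32 libraries, 48 with the excluded libraries added, 10 without replicate 1 of both genotypes, and 13 (without rTg4510 replicate 1) to 45 (without WT replicate 2) with a library left out. Against 2 months the count was 537 with all 32 libraries and between 959 and 1345 with a library left out. The replicate block gave 2993 DEGs, 19 genes against 4 months and 1232 against 2 months, counts within 1.5 times of those without it, but only 14 of the 26 genes against 4 months and 1089 of the 1245 against 2 months were called in both. Of 256 named DEGs, 56 lost the call in at least 1 of the 15 alternatives, and 200 did not in those where they were tested. Named genes removed by the filter on low signal were not tested in that setting. A value with a changed sign (1 in number) was counted apart from the lost calls. Kctd12, one of the 5 DEGs of highest signal, went to 0.00 under quantile normalization, which gives equal values to a gene of the same rank in all 6 libraries, as Kctd12 was. For lists with 8 or more called members, 8 of 270 recounts moved by more than 1.5 times. Depth is unknown, so small differences in genes of low signal could not be bounded, and the test with the filter on low signal covered 13941 genes. The causes of these shifts were not tested.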

Other observations

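The DEGs of highest signal were Kctd12, an auxiliary subunit of GABA-B receptors, with 18.25, 18.38 and 18.40 in WT and 17.70, 17.52 and 17.81 in rTg4510 and a change of -0.66 (SE 0.07, FDR 3.26e-07), and Ier5, an immediate early gene, with 15.76, 15.97 and 15.55 in WT and 14.72, 15.03 and 14.81 in rTg4510 and -0.91 (SE 0.19, FDR 0.00105). The other 3 were Ftl1-ps1, Rpl10-ps3 and Rpl10-ps1, pseudogenes whose signal cannot be separated from that of ferritin and ribosomal protein genes, with log2 fold changes of 1.15, 1.26 and 1.27. Among long non-coding RNAs 58 were up-regulated and 54 down-regulated. Mexis, a non-coding RNA next to the cholesterol transporter gene Abca1, had 5.55, 6.05 and 4.52 in WT and 8.05, 8.18 and 8.19 in rTg4510 and changed by 2.77 (SE 0.45, FDR 7.23e-05), while Abca1 itself had 8.64, 8.64 and 8.74 in WT and 9.20, 9.23 and 9.20 in rTg4510 and was not called (0.54, SE 0.05, FDR 1.01e-07). Gm10389 was at least 6.8-fold higher in rTg4510 with 2.67, 3.01 and 2.52 in WT and 5.53, 6.28 and 5.93 in rTg4510. 4930556M19Rik changed by 3.04 (SE 0.60, FDR 5.45e-04), and 5730435O14Rik was at least 2.03-fold lower.

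Several genes known from eosinophils were looked up after Ear6, Prg2 and Ccr3 had been seen among the decreases. Ear1 had 6.39, 6.00 and 6.57 in WT and 4.66, 4.81 and 6.30 in rTg4510 (-1.06, SE 0.65, FDR 0.259) and Ear10 had 5.70, 5.82 and 6.20 in WT and 3.92, 4.66 and 5.91 in rTg4510 (-1.08, SE 0.55, FDR 0.165), with no call. Siglecf, a sialic acid receptor of eosinophils and some macrophages, rose with 5.68, 5.42 and 5.83 in WT and 6.97, 6.97 and 7.24 in rTg4510 and a log2 fold change of 1.41 (SE 0.16, FDR 8.60e-07). Klrb1a and Klrb1c, lectin-like receptors known from natural killer cells, rose with 3.59, 4.44 and 4.04 in WT and 6.51, 6.59 and 6.54 in rTg4510 and 4.63, 4.87 and 4.04 in WT and 5.88, 6.34 and 5.91 in rTg4510, in contrast to Klrd1, which fell.

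The 467 DEGs called at no younger age comprised 247 up-regulated and 220 down-regulated genes, with a median change of 1.74 fold at 8 months. At 6 months 442 of the 467 had the same sign. After Atp6v0d2, the genes with the smallest p for the difference between 8 and 6 months were Gm7985, Gm5688, Slc25a30 and Polr2b, with differences of 1.52 (SE 0.30, FDR 0.623), 1.30 (SE 0.28, FDR 0.719), 0.79 (SE 0.17, FDR 0.719) and -0.25 (SE 0.05, FDR 0.781), none of which passed.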
